A study of Rattus norvegicus with 13 samples.

Results

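The 10 genes described here encode kinases, regulators and nuclear effectors of the Hippo pathway: *Stk3*, *Lats1*, *Lats2*, *Ajuba*, *Amotl1*, *Yap1*, *Wwtr1*, *Tead1*, *Tead2* and *Tead3*. They were found in the deposited table by gene name, each had 1 row, and they make up 10 of 14716 rows. RNA was measured by RNA-Seq in the posterior ventricular zone (VZ), the layer of progenitor cells lining the ventricle, of male Long Evans rat pups on postnatal day 2 (PN2). The 7 control pups came from dams on 0 ppm. The 6 PTU exposed pups came from dams given 3 ppm propylthiouracil (PTU), an inhibitor of thyroid hormone synthesis, in drinking water from gestational day 6. The study calls the groups euthyroid and hypothyroid. The tissue was cut by laser from the pseudostratified epithelium, both hemispheres of a pup made 1 library, and each pup came from its own litter. The comparison asks which transcripts of this epithelium differ between the groups.

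In the Hippo pathway, the kinase MST2 (*Stk3*) activates the kinases LATS1 and LATS2, which phosphorylate the coactivators YAP (*Yap1*) and TAZ (*Wwtr1*) and keep them out of the nucleus. Unphosphorylated YAP and TAZ enter the nucleus and bind DNA through the TEAD proteins. Proteins of cell junctions and the actin cytoskeleton feed into this cascade: AJUBA binds and restrains LATS kinases, and AMOTL1 holds YAP at junctions. In the developing brain the pathway is known for its control of progenitor growth in radial glia, whose apical ends are joined by adherens junctions. Transcript levels do not report phosphorylation or the location of YAP and TAZ.

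Promoter windows of 4 genes are shown because they carry the TEAD recognition sequence: 2 of the described genes, and *Ccn1* and *Ccn2*, secreted matrix proteins and classical YAP targets. Each window runs from 250 bases before to 50 bases after the RefSeq start, on the GRCr8 assembly, which is not the build used for the counts. Capitals mark GGAATG or its reverse complement CATTCC.
Ajuba, chr15:31999993-32000292, minus strand: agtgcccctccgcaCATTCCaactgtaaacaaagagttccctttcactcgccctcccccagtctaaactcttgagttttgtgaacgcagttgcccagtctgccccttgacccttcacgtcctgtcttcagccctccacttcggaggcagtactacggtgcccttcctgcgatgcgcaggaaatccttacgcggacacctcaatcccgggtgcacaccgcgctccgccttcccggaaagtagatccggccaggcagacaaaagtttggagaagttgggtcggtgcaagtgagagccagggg
Yap1, chr8:13451388-13451687, minus strand: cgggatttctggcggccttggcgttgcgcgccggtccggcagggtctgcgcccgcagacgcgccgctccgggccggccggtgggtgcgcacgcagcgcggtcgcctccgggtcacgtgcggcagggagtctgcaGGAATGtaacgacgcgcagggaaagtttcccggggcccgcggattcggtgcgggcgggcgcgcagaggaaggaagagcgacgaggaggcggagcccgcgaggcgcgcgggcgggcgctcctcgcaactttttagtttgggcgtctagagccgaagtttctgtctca
Ccn1, chr2:237225640-237225939, minus strand: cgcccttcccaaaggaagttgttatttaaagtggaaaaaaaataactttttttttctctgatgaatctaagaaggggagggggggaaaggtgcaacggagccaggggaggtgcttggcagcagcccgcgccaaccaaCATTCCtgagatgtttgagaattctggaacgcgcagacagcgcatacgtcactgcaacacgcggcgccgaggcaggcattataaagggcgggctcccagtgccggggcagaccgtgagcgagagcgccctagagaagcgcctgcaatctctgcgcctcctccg
Ccn2, chr1:22624565-22624864, minus strand: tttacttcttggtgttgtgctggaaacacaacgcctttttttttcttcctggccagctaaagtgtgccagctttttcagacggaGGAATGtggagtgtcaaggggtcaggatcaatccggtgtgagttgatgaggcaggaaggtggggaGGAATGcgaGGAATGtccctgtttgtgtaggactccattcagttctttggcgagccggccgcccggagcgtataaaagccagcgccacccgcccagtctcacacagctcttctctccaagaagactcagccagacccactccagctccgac
The first base of the match lay 236 bases upstream of the start in *Ajuba*, 116 in *Yap1* and 113 in *Ccn1*, and *Ccn2* held 3 matches at 166, 101 and 92 bases. Of the 10 genes, 6 had a window, and 2 of these held the motif, read on both strands, against 15% of all 27457 genes with a window. AGGTCA, a sequence bound by thyroid hormone receptors, was in a window of *Wwtr1* and in 2 of 5 windows of *Amotl1*, and in 16.9% of all genes. A match is a description of letters and not a binding site.

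Values are normalized counts (estimated counts divided by a size factor of each pup), and differences are PTU minus control on the scale of log2(normalized count + 1), with limma's standard error (SE). Estimated reads per pup ran from 22293122 to 43508529 in control pups and from 28411997 to 44386839 in PTU exposed pups, and the 10 genes had between 115 and 6226 estimated reads in a pup. Levels are not compared between genes, since transcript lengths were not used. The study reported some degradation of the captured VZ RNA. Pairs of pups had Pearson r from 0.92 to 0.98 over rows. By limma's array weights, in which a lower weight marks a more variable library, PTU exposed pup 1 was lowest at 0.45 and control pups 3 and 4 were highest at 2.16 and 2.18.

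Of the 10 genes, 9 were lower and 1, *Tead1*, was higher in PTU exposed pups, with a median difference of −0.12, against 49.3% of all tested rows lower and a median of 0.0038. Leaving out 1 pup at a time kept 8 or 9 of the 10 lower, and the median became −0.07 without control pup 5. The adjusted p of limma was at most 0.05 for 0 of the 10 genes and for 0% of the 14606 rows tested. An unadjusted p under 0.05 was reached by 2 genes, *Ajuba* and *Tead3*, both lower, where 8.2% of all rows were lower, 8.11% higher and 16.3% either at that level. The groups did not overlap for 1 gene, *Tead3*, against 0.596% of all rows. Scaling every pup to the same total moved the median of all rows up by 0.20 on the log2 scale. Under it *Yap1*, *Wwtr1*, *Lats1*, *Lats2*, *Amotl1* and *Stk3* turned from lower to higher (0.01 to 0.16), while *Ajuba* (−0.34), *Tead2* (−0.05) and *Tead3* (−0.32) stayed lower. Of the 10 genes only *Tead1* then had an unadjusted p under 0.05. In bulk tissue, fewer cells of a type and less RNA per cell cannot be told apart.

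**Figure D1:**
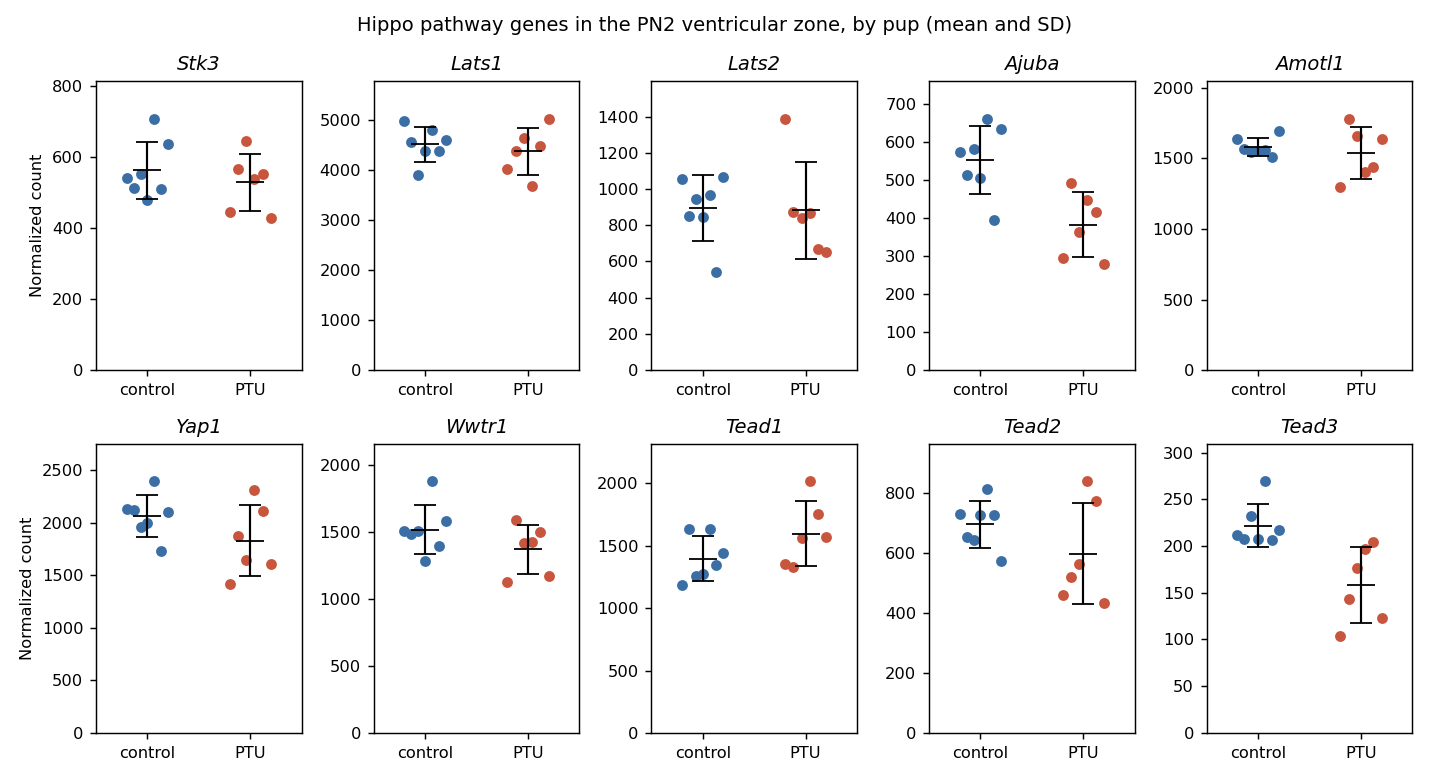
Normalized count (y axis, from 0) of each gene in each pup, control in blue (n = 7) and PTU exposed in red (n = 6), with the mean and SD as bars. For *Tead3* every PTU exposed pup (104 to 204) lay below every control pup (206 to 269), and for *Ajuba* the groups met only at the lowest control pup (395).

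Among the kinases no difference was resolved. *Stk3* spanned 479 to 708 among controls (median 541) and 429 to 645 with PTU (median 545). The groups overlapped nearly throughout, and the difference was −0.09 (SE 0.12; 95% interval −0.35 to 0.17; adjusted p = 0.744; exact permutation p = 0.446).

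*Lats1* spanned 3891 to 4974 among controls (median 4555) and 3683 to 5016 with PTU (median 4423). The lowest and the highest value both belonged to PTU exposed pups. The difference was −0.05 (SE 0.08, 95% interval −0.22 to 0.12, adjusted p = 0.800).

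*Lats2*, the other LATS kinase and itself a YAP target, spanned 539 to 1068 among controls (median 945) and 653 to 1388 with PTU (median 852). Control pup 6 was far below its group and PTU exposed pup 1 far above, and 5 of 6 PTU exposed pups lay below the control mean of 896 ± 180 (SD). The difference of −0.04 had the widest interval of the 10 genes (−0.41 to 0.33; adjusted p = 0.934), and it was −0.18 without PTU exposed pup 1.

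Of the 2 junction and cytoskeleton regulators, *Ajuba* had the smallest limma p of the 10 genes. It spanned 395 to 662 among controls (median 574) and 280.4 to 492 with PTU (median 390.2). All 6 PTU exposed pups lay below the control mean, and 6 of 7 control pups lay above every PTU exposed pup, the exception being control pup 6 at 395. Group means were 552 ± 90.0 for controls (SD, n = 7) and 383 ± 85.0 under PTU (SD, n = 6), a difference of −0.54 (SE 0.15, 95% interval −0.87 to −0.22) or −31.3%. The adjusted p of limma was 0.146 (unadjusted 0.00269, rank 268 of 14606 rows), and the exact permutation test for this gene alone gave p = 0.00758. Without any 1 of the 13 pups the difference stayed between −0.62 and −0.46.

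*Amotl1* was the steadiest gene among control pups, from 1509 to 1690 (median 1561), a coefficient of variation of 3.9%. PTU exposed pups spread on both sides of that range, from 1300.0 to 1780.3 (median 1538), with 3 below the lowest and 1 above the highest control pup. The difference was −0.05 (SE 0.08; 95% interval −0.22 to 0.13; adjusted p = 0.805).

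The coactivator *Yap1* spanned 1733 to 2394 among controls (median 2107) and 1419 to 2318 with PTU (median 1761). In 3 PTU exposed pups it was below the lowest control pup, and in PTU exposed pups 4 and 5 it was above the control mean. The difference was −0.19 (SE 0.11; 95% interval −0.42 to 0.04; adjusted p = 0.401; exact permutation p = 0.132).

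Its paralog *Wwtr1* spanned 1280 to 1876 among controls (median 1504) and 1123 to 1586 with PTU (median 1419). PTU exposed pups 1 and 6 were the only ones below the control range. The difference was −0.15 (SE 0.10; 95% interval −0.37 to 0.07; adjusted p = 0.477; exact permutation p = 0.170).

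The 3 TEAD genes, the DNA-binding partners of YAP and TAZ, had differences of both signs. *Tead1* spanned 1185 to 1636 among controls (median 1344) and 1327 to 2015 with PTU (median 1566), with PTU exposed pups 4 and 5 above every control pup. Its difference was 0.19 (SE 0.11; 95% interval −0.04 to 0.42; adjusted p = 0.399; exact permutation p = 0.121).

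*Tead2* spanned 572 to 814 among controls (median 726) and 433 to 838 with PTU (median 542). PTU exposed pups split around the control range, with 4 below its lowest pup, 1 within it and 1 above. The difference was −0.26 (SE 0.15; 95% interval −0.57 to 0.06; adjusted p = 0.405).

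*Tead3* spanned 206 to 269 among controls (median 212) and 104 to 204 with PTU (median 159.9). Every PTU exposed pup was below every control pup, but PTU exposed pups 4 and 5, at 197 and 204, came within 10 normalized counts of the lowest control pup at 206. Group means were 222 ± 22.7 for controls (SD, n = 7) and 158 ± 40.7 under PTU (SD, n = 6), a difference of −0.52 (SE 0.17, 95% interval −0.89 to −0.16) or −30.4%. The adjusted p of limma was 0.174 (unadjusted 0.00784), and the exact permutation p of 0.000583 is the smallest that 7 against 6 pups can give.

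**Figure D2:**
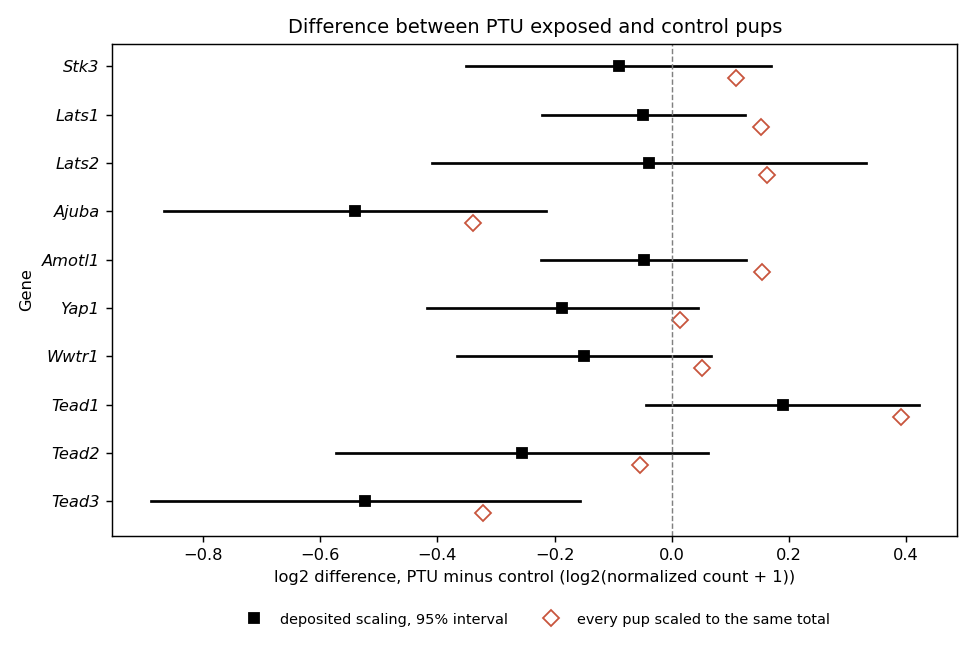
Difference between PTU exposed and control pups on the log2(normalized count + 1) scale (x axis) for each gene (y axis), as deposited (black squares, with limma's 95% interval) and after giving all pups 1 common total (open diamonds). Only the intervals of *Ajuba* (−0.87 to −0.22) and *Tead3* (−0.89 to −0.16) exclude 0, and the other scaling shifts every gene up by about the 0.20 by which it shifts all rows.

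A ratio of 2 transcripts within a pup does not depend on how that pup was scaled, and 3 ratios of paralogs were compared. The log2 ratio of *Tead2* to *Tead1* fell from −1.0 ± 0.24 (SD, n = 7) for controls to −1.45 ± 0.24 (SD, n = 6) under PTU, by 0.44 on the log2 scale (two-sided exact permutation p = 0.00816, adjusted over the 3 ratios p = 0.0245). Control pups ran from −1.33 to −0.70 and PTU exposed pups from −1.85 to −1.19, so all 6 PTU exposed pups lay below the control mean and 4 below the lowest control pup. Leaving out control pup 1, 3, 4, 5 or 6 raised the adjusted p to 0.0519, and leaving out PTU exposed pup 6 raised it to 0.0644, with differences of −0.36 to −0.44.

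The ratio of *Wwtr1* to *Yap1* was −0.45 ± 0.11 in control and −0.41 ± 0.18 in PTU exposed pups (difference 0.04; exact permutation p = 0.664; adjusted p = 0.963). The ratio of *Lats2* to *Lats1* was −2.36 ± 0.32 and −2.35 ± 0.50 (difference 0.01; exact permutation p = 0.963; adjusted p = 0.963). The ratio of *Tead3* to *Tead1*, added after the values were seen and so given without a test, was −2.64 ± 0.18 in control and −3.36 ± 0.26 in PTU exposed pups, with all 6 PTU exposed pups below the lowest control pup.

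**Figure D3:**
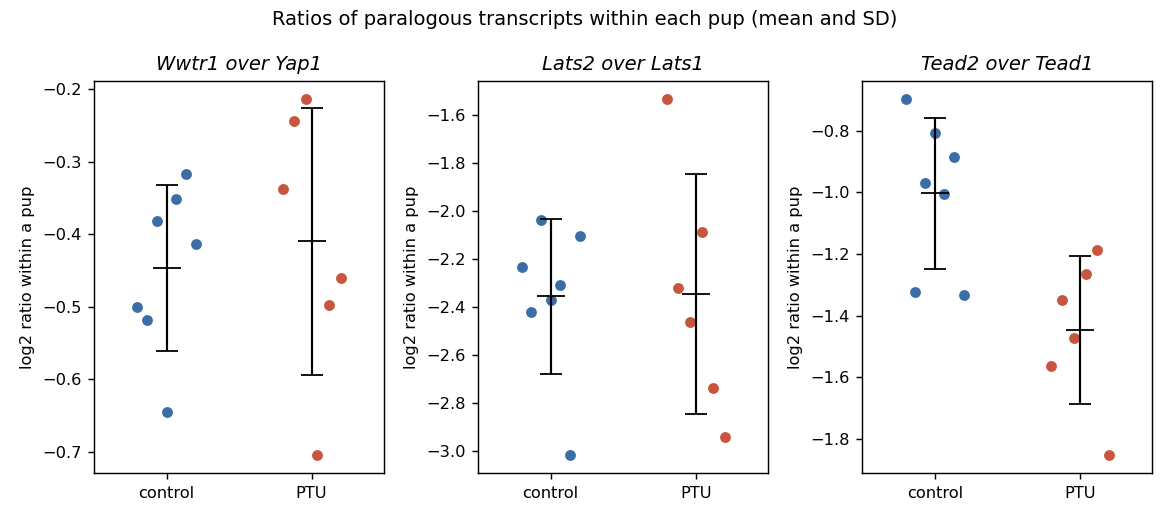
Log2 ratio within each pup (y axis, not from 0) of 3 pairs of paralogs, control in blue (n = 7) and PTU exposed in red (n = 6), with mean and SD. The *Tead2* to *Tead1* ratio sits lower in PTU exposed pups (−1.45 against −1.0), with 4 of 6 below the lowest control pup, and the means of the other two ratios differ by 0.04 and 0.01.

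The rest of the pathway was described from 4 lists, of which the target list also holds *Lats2*, described above, and shares *Amotl2* and *Ptpn14* with the upstream list. Of 80 other genes counted once 72 were tested: 47 were lower and 25 higher, with a median of −0.08. An unadjusted p under 0.05 was found for 16 (22.2%, 12 lower and 4 higher, against 16.3% of all rows), limma's adjusted p was at most 0.05 for 0, and the groups did not overlap for 0. After giving all pups 1 common total, the medians of the core genes, the upstream regulators and the targets moved from −0.09, −0.18 and −0.18 to 0.10, 0.02 and 0.02, all still below the 0.20 of all rows. Under that scaling 4 of 18 core genes, 12 of 26 upstream regulators and 9 of 20 targets were lower, against 21.5% of all rows.

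Upstream regulators at the membrane and junctions had 26 of 28 genes tested, 22 lower and 4 higher, with 5 lower and 0 higher (19.2%) at an unadjusted p under 0.05, near the 16.3% of all rows. The median of −0.18 became −0.12 without PTU exposed pup 5, with 19 lower and 7 higher. *Crb1* and *Crb2*, transmembrane proteins that set the apical domain, had differences of −0.48 (SE 0.13, adjusted p = 0.140) and −0.56 (SE 0.19, adjusted p = 0.175). *Crb1* spanned 323 to 536 among controls and 251 to 329 with PTU, with 5 of 6 PTU exposed pups below the lowest control pup. *Wwc1* (KIBRA, which helps activate LATS) ranged from 4478 to 5874 and from 2923 to 4725, a difference of −0.39 (SE 0.10, adjusted p = 0.133). The giant cadherin *Fat1* differed by −0.33 (SE 0.10, adjusted p = 0.152), with 5 of 6 PTU exposed pups below every control pup.

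*Rassf1*, a scaffold that binds MST kinases and the remaining upstream gene at that level, is named after its values were seen. It had −0.29 (SE 0.13, adjusted p = 0.274), with 6 of 6 PTU exposed pups below the control mean and 4 below the lowest control pup. The cadherins *Fat4* and *Dchs1*, a receptor and ligand pair, had differences of −0.02 (SE 0.20) and −0.01 (SE 0.12), and the merlin gene *Nf2* had 0.08 (SE 0.12). The relatives of *Ajuba* within the same protein family, *Limd1* and *Wtip*, had −0.22 (SE 0.15, adjusted p = 0.472) and −0.43 (SE 0.29, adjusted p = 0.462). *Amotl2*, a relative of *Amotl1*, had −0.07 (SE 0.08), and *Amot* had no row.

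Of the core cassette and the partners of YAP, 18 of 22 genes were tested, 12 lower and 6 higher, with 3 lower and 0 higher at an unadjusted p under 0.05. That share, 16.7%, is about the 16.3% of all rows, and the median of −0.09 became −0.06 without control pup 2 or 5 or PTU exposed pup 2 or 6. Leaving out PTU exposed pup 1 gave 15 lower and 3 higher. *Vgll4*, which competes with YAP for TEAD proteins, spanned 1097 to 1246 among controls and 775 to 1172 with PTU, with 5 of 6 below the lowest control pup (difference −0.33, SE 0.10, adjusted p = 0.150). *Mob1a*, the LATS cofactor, differed by −0.30 (SE 0.13, adjusted p = 0.267), the kinase *Mink1* by −0.21 (SE 0.09, adjusted p = 0.292), and the kinase *Taok3* by 0.33 (SE 0.17, adjusted p = 0.339). *Stk4*, the paralog of *Stk3*, and the scaffold *Sav1* were at −0.04 (SE 0.09) and 0.01 (SE 0.10).

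STRIPAK is the phosphatase complex that switches MST kinases off. All 11 genes were tested, 2 lower and 9 higher with a median of 0.11, and without PTU exposed pup 1 they were 4 lower and 7 higher with a median of 0.07. At an unadjusted p under 0.05, 2 were higher and 0 lower (18.2%, near the 16.3% of all rows). After giving all pups 1 common total, 11 of 11 were higher with a median of 0.31, above the 0.20 of all rows. *Strn4*, a scaffold of the complex, spanned 2228 to 2517 among controls and 2374 to 3125 with PTU (difference 0.23, SE 0.07, adjusted p = 0.174). *Mob4* differed by 0.27 (SE 0.12, adjusted p = 0.263) and *Strn3* by 0.17 (SE 0.09, adjusted p = 0.337).

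Of the YAP and TAZ target genes, 20 of 22 were tested, 14 lower and 6 higher, with 4 lower and 2 higher at an unadjusted p under 0.05 (30% against 16.3% of all rows). The median of −0.18 became −0.12 without PTU exposed pup 2. *Ccdc80*, a matrix protein, spanned 1209 to 2500.1 among controls and 657 to 1435 with PTU (difference −0.67, SE 0.18, adjusted p = 0.136). *Ccn2*, whose promoter is shown above with 3 TEAD sequences, spanned 365 to 564 among controls and 148 to 598 with PTU. The lowest and highest pup were both PTU exposed, and its difference was −0.61 (SE 0.25, adjusted p = 0.242). *Ccn1* had −0.41 (SE 0.22, adjusted p = 0.350), the receptor kinase *Axl* −0.37 (SE 0.13, adjusted p = 0.190), the kinase *Nuak2* −0.42 (SE 0.15, adjusted p = 0.194), and *Ankrd1* had no row. The 2 targets higher at an unadjusted p under 0.05, named after their values were seen, were *Foxf2* (0.54, SE 0.25, adjusted p = 0.296), a transcription factor, and *Asap1* (0.23, SE 0.10, adjusted p = 0.284). *Nuak2* had 5 of 6 PTU exposed pups below the lowest control pup. GGAATG was in 5 of the 15 target genes with a promoter window, against 15% of all genes.

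**Figure D4:**
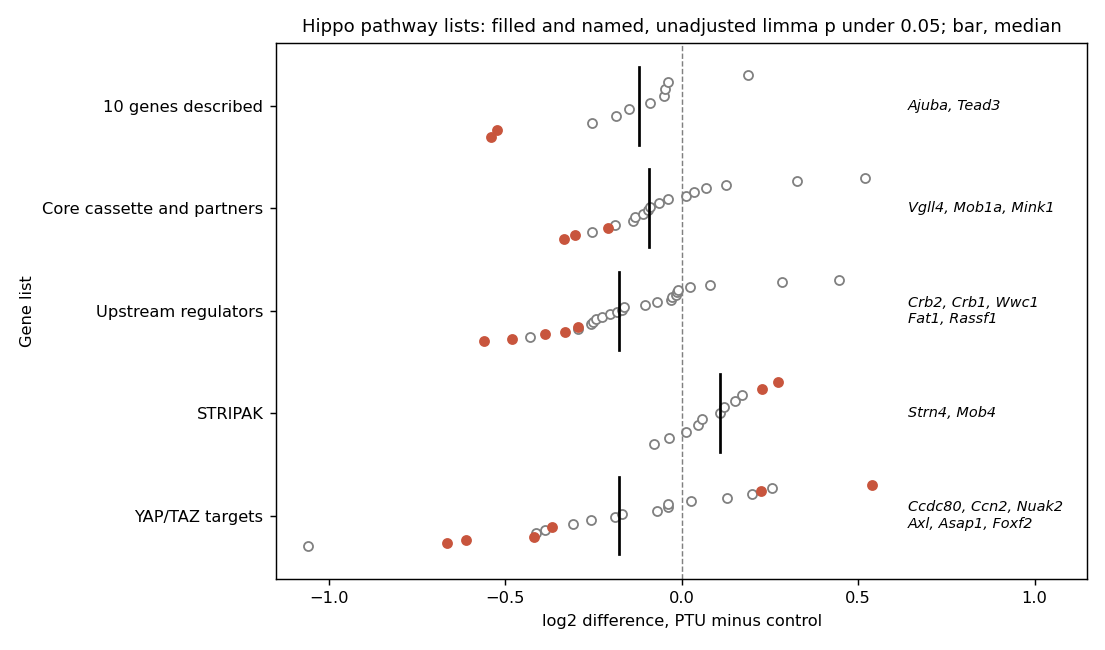
Log2 difference, PTU minus control (x axis), of each tested gene in the 10 genes described and 4 other pathway lists (y axis). Filled points have an unadjusted limma p under 0.05 and are named at the right, and bars are medians, from −0.18 (upstream regulators and targets) to 0.11 (STRIPAK).

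Cell type markers were examined in the same libraries, and by limma 0 of them had an adjusted p of at most 0.05. All 10 radial glia and neural progenitor markers were lower in PTU exposed pups (median −0.33; 6 at an unadjusted p under 0.05, a level passed by 16.3% of all rows), with a summed level of 76924 to 106344 in control and 63165 to 84259 in PTU exposed pups; after giving all pups 1 common total, 9 of 10 were lower. Of the neuronal markers 8 of 9 were higher (median 0.33; 4 at an unadjusted p under 0.05; summed level 54152 to 77201 and 69441 to 113371), and all 9 choroid plexus markers with a row were lower (median −0.76; 5 at an unadjusted p under 0.05; 49413 to 138816 and 23029 to 99280), while *Cldn2* had no row. Without PTU exposed pup 1 the neuronal median was 0.18 with 7 of 9 higher, and without PTU exposed pup 6 the choroid plexus median was −0.50. All 4 intermediate progenitor markers were lower (median −0.39; 1 at an unadjusted p under 0.05), 3 of 4 after giving all pups 1 common total, and all 6 oligodendrocyte lineage markers were higher (median 0.24; 1 at that level), also after that scaling. The oligodendrocyte median was 0.14 without control pup 5. Markers of ependyma, endothelium, pericytes, microglia and meningeal fibroblasts had medians from −0.09 to 0.17 and at most 1 gene per list at that level. Their summed levels differed by −0.49 on the log2 scale for ependyma and by −0.16 to 0.11 for the others. Leaving out 1 pup moved the ependymal median between −0.18 and 0.01 and the meningeal median between −0.41 and 0.27. No marker with a row was at 0 in a pup. Their part in the results for *Ajuba*, *Tead3*, *Tead2* and *Tead1* was not tested.

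Set against the summed radial glia markers of the same pup, a description added after the values were seen and given without a test, *Ajuba* was lower in PTU exposed pups by 0.25 on the log2 scale and *Tead3* by 0.23. All 6 PTU exposed pups were below the control mean for *Ajuba* on this scale, and 4 of 6 for *Tead3*. *Tead1* was higher by 0.48, with 0 of 6 PTU exposed pups below the control mean, a count also found for *Wwtr1*, *Amotl1* and *Stk3*. *Yap1*, *Wwtr1*, *Tead2*, *Lats1*, *Lats2*, *Amotl1* and *Stk3*, lower as deposited, were higher on this scale by 0.04 to 0.26.

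Variation between pups of the same group was examined over the 13 pups, with log2 values centred within groups and 75 relations computed (45 pairs of the 10 genes and 30 of a gene with a marker list). Pairs had r from −0.34 to 0.88 with a median of 0.33, and 32 of 45 were above 0. *Wwtr1* varied together with *Stk3* (r = 0.88, permutation p adjusted over the 75 relations = 0.0169; rho = 0.91, adjusted p = 0.0154) and with *Ajuba* (r = 0.84, adjusted p = 0.0302; rho = 0.90, adjusted p = 0.0067). Leaving out the 2 pups farthest from the median on the x axis gave r = 0.91 and 0.87.

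*Wwtr1* also varied together with the radial glia markers, taken here as the mean of their log2 values and not as their sum. It had r = 0.90 (permutation p adjusted = 0.0169) and rho = 0.84 (adjusted p = 0.0477), with r = 0.86 without PTU exposed pups 6 and 1. For *Ajuba* the same relation had r = 0.78 (permutation p adjusted = 0.0670; rho = 0.76, adjusted p = 0.0707), and for *Stk3* r = 0.75 (adjusted p = 0.0670). With the mean log2 value of the neuronal markers, *Wwtr1* had r = −0.72 (adjusted p = 0.0639), *Yap1* −0.73 (adjusted p = 0.0679) and *Tead3* −0.73 (adjusted p = 0.0713). Without PTU exposed pups 1 and 4 these were −0.67, −0.47 and −0.38. *Yap1* and *Ajuba* had r = 0.80 (adjusted p = 0.0639; rho = 0.81, adjusted p = 0.0477), *Ajuba* and *Stk3* r = 0.72 (adjusted p = 0.0679; rho = 0.81, adjusted p = 0.0477), and *Tead2* and *Tead3* r = 0.82 (adjusted p = 0.0670). *Lats1* and *Lats2* had r = −0.21, and *Lats1* was near or below 0 with most others except *Amotl1* (r = 0.57).

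**Figure D5:**
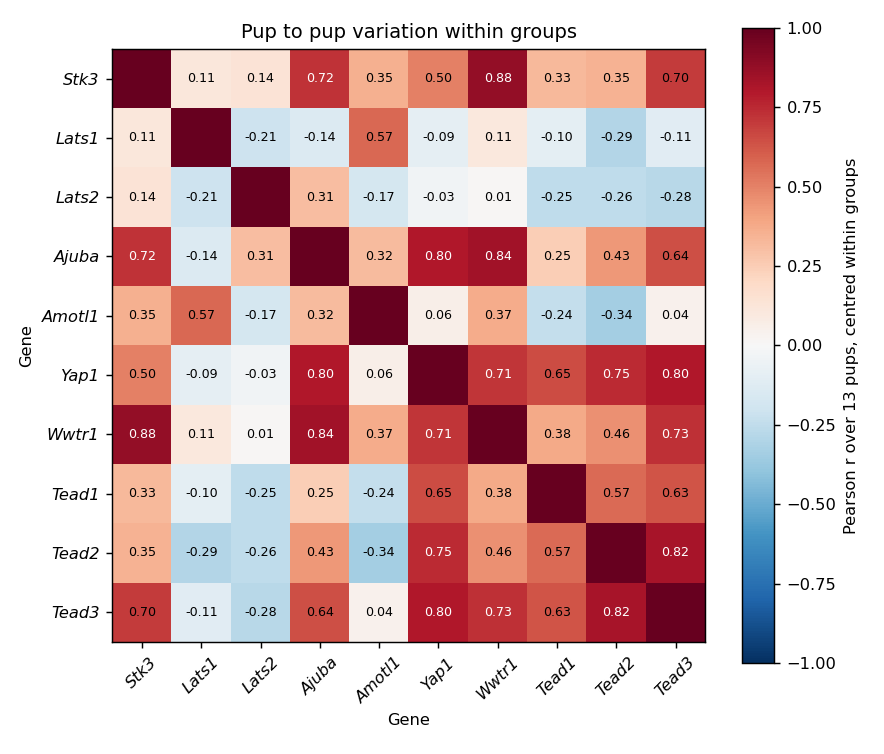
Pearson r over 13 pups, centred within groups, for each pair of the 10 genes (both axes; colour from −1 in blue to 1 in red). Values run from −0.34 to 0.88, with the highest between *Wwtr1* and *Stk3*, and 2 of 45 pairs had an adjusted p of at most 0.05 by Pearson r (4 by Spearman rho).

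Among the 5 named rows whose within-group variation was most like that of *Ajuba* over the 13 pups were *Cnn3* (r = 0.92), *Dennd2b* (r = 0.91), *Shroom3* (r = 0.90) and *Tmem82* (r = 0.89). *Cnn3* encodes the actin-binding protein calponin 3 and *Shroom3* an organizer of apical actin. The rows were picked as the highest of all named rows, so these values carry no test.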

How the data were processed

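Libraries of captured VZ from 13 male pups of separate litters (7 control, 6 PTU) were made with a stranded total RNA kit. Reads were trimmed (Trimmomatic) and mapped with STAR (2.7.8a) on mRatBN7.2 by the authors, who quantified them in Partek by expectation/maximization and applied median ratio normalization. The deposited values (normalized counts) are thus a non-negative signal, not raw counts. The methods name a RefSeq annotation, whereas rows carry Ensembl identifiers; whether counting used strand is not given in the sources used here. The authors' DESeq2 comparison was not used. It called genes at an FDR of at most 0.05, where limma here called 0 rows. Its deposited columns hold p-value, FDR, the mean of each group, the PTU to control ratio, the log2 of this ratio, and a fold change score with a sign for direction. All columns of single pups were used.

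Rows whose mean over the 13 pups reached 10 (14606 of 14716) were tested as log2(normalized count + 1) in limma 3.58.1 (R 4.3.3) with a variance trend (Benjamini-Hochberg over all rows, threshold 0.05, no covariate). Single genes and ratios were also compared with an exact permutation test, two-sided, over all 1716 regroupings. Correlations used 100000 permutations within groups. The limma test, the permutation test and the TMM code were tested on simulated data. The 10 genes and all lists were chosen with earlier results of these data known. The 10 genes were named whatever their values; from each other list the 4 smallest unadjusted p and a fixed set of pathway genes were named, and the remaining genes are given as counts, apart from 3 genes named after their values were seen. Values of 2 genes that this rule would name are not reported here. Of values between 20 and 150, from 88.2 to 89.7% were whole multiples (within 0.02) of 1 step per pup, short of the 95% needed to recover reads, so depth is an estimate from that step and no model of raw counts was used. Promoter windows were matched by symbol to RefSeq tables of GRCr8. *Tead1*, *Tead2*, *Lats2* and *Stk3* had none. Alternatives were pseudocounts of 0.1 and 10, no filter, a mean of at least 100, TMM factors (trimmed mean of M values, computed here), the same total for every pup, summed rows of a gene, array weights, a replicate block, and each pup left out in turn. Python 3.11.15 ran the remaining steps, with scipy 1.17.1, numpy 2.4.6, matplotlib 3.10.9 and pandas 2.3.3.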

Additional observations from a re-analysis of the deposited data

Results flagged for a closer look

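In 26 groups (10 genes and 3 ratios, 2 groups each) the highest and lowest pup were compared with the rest by Dixon's ratio of gap to range, which flags about 1 in 20 groups by chance, and 4 groups had such a pup. *Tead3* was 269 in control pup 5, with the other control pups at 206 to 232. *Lats2* was 539 in control pup 6, with the others at 844 to 1068, and 1388 in PTU exposed pup 1, with the others at 653 to 875. The log2 ratio of *Lats2* to *Lats1* was −3.02 in control pup 6, with the others at −2.42 to −2.04. Without control pup 5 the difference of *Tead3* was −0.48 in place of −0.52.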

How the results depend on the processing

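In each of the 22 alternatives 0 of the 10 genes had an adjusted p of at most 0.05. *Ajuba* was lower in all 22 (−0.62 to −0.34; adjusted p 0.0552 without PTU exposed pup 2 to 0.515 with the same total for every pup), as were *Tead3* (−0.60 to −0.32; adjusted p 0.134 to 0.533) and *Tead2* (−0.36 to −0.05), and *Tead1* was higher in all 22 (0.12 to 0.39). With the same total for every pup, *Yap1* (0.014), *Wwtr1* (0.051), *Lats1* (0.15), *Lats2* (0.16), *Amotl1* (0.15) and *Stk3* (0.11) changed sign, 1 of the 10 genes, *Tead1*, had an unadjusted p under 0.05 in place of 2, and 1584 rows were higher and 81 lower at that level in place of 1185 and 1198, as the scaling moved all rows up by 0.20. Array weights gave 40 rows with an adjusted p of at most 0.05 and turned *Lats1* to 0.0084. Leaving out 1 pup gave 0 to 179 such rows (7 without control pup 6 and 179 without PTU exposed pup 2), 2 to 4 of the 10 genes with an unadjusted p under 0.05 (4 without PTU exposed pup 4), −0.18 to 0.038 for *Lats2*, −0.26 to −0.12 for *Yap1*, −0.19 to −0.10 for *Wwtr1*, −0.15 to −0.03 for *Stk3*, −0.09 to −0.0012 for *Lats1*, −0.09 to −0.0019 for *Amotl1*, 0.12 to 0.24 for *Tead1*, −0.36 to −0.17 for *Tead2*, −0.15 to 0.13 for the ratio of *Lats2* to *Lats1*, −0.0024 to 0.10 for that of *Wwtr1* to *Yap1*, and −0.50 to −0.36 for that of *Tead2* to *Tead1*. The causes were not tested.

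Pups of the same replicate number came from different litters, and their deviations from the group means had r from −0.07 to 0.20. The numbers were treated as names and not as pairs. With the replicate block 18 rows had an adjusted p of at most 0.05, *Lats2* turned to 0.0081, and the ratio of *Tead2* to *Tead1* was −0.50 with an adjusted p of 0.0938, where 6 pairs allow no unadjusted p below 0.0312. Depth limits *Tead3* most, with 115 estimated reads in the lowest pup.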
